A study of Mus musculus with 16 samples.

Results

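The genes described here encode the factors that start and carry out protein synthesis on cytosolic ribosomes, together with the kinases, inhibitors and methyltransferases named after them. They were taken by name: every protein-coding gene of the deposited table whose symbol begins with Eif or Eef and a number. The rule found 69 genes among 54432 rows, and 67 of them had a mean of at least 10 normalised counts and entered the tests. The other 2, Eif4e1b and Eef1akmt3, had means of 0.210 and 5.85 normalised counts.

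The cells were THY-1+ germ cells of male C57 LacZ pups, enriched for spermatogonial stem cells and grown on STO feeders, a mouse fibroblast line. Every culture was at passage 9 to 12 and received GDNF at 20 ng/mL with its co-receptor GFRα1 at 150 ng/mL. For a week they were given in addition either no FGF (the control, with albumin carrier), FGF9 at a low dose of 1 ng/mL, FGF9 at a high dose of 20 ng/mL, or FGF2 at 1 ng/mL, and bulk mRNA was then sequenced. Before treatment the cultures had been kept with 1 ng/mL FGF2 according to the labels. FGF2 was therefore taken away from the control and from both FGF9 groups, and only the FGF2 group kept it. Contrasts of FGF9 with FGF2 also differ in this.

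The labels list 4 biological replicates per treatment, the study states fewer, and the title of the table points to 12 libraries. The table gives for each gene a mean over all libraries and, for each treatment, the fold change against control with its standard error and p-value. No value per library is given, so each group's level was derived from these and is called its derived mean, and no SD, no overlap of samples and no depth of a single library can be stated. All 16 listed markers of spermatogonia were measured, with means of 380 to 47959 (Dazl). The list is not limited to undifferentiated cells, since it includes Sohlh1 and Tex101, which the study groups with differentiation. With high-dose FGF9, 2 of the 16 passed an adjusted p of 0.05 by the authors' Wald test, as did 2.75% of all genes tested. Id4 rose by 1.41-fold (adjusted p = 0.000625) and Tex101 fell to a fold of 0.807 (adjusted p = 0.00119). The median log2 fold change of the 16 was 0.01. None passed with low-dose FGF9 or FGF2, where 0 and 6 had an unadjusted p under 0.05. The summed derived mean of 8 Sertoli cell genes lay between 766 and 841 in every group. The 24 listed fibroblast markers summed to 19995 in control, 21657 with low-dose FGF9, 21082 with FGF2 and 26825 with high-dose FGF9. None was at 0. Of these sums, Fn1 alone gave 10475 in control and 11102 with high-dose FGF9. The list includes Thy1, which marks STO feeders in the study's single-cell data but whose product was also used to select the germ cells. With high-dose FGF9, 7 of the 21 tested rose past an adjusted p of 0.05 by the authors' Wald test, as did 1.76% of all genes tested. Among the 7 were Cav1, by 22.6-fold from a derived mean of 16.1 in control, and Vim, by 3.36-fold. The other 14 did not pass, among them the most abundant, Fn1, with a fold of 1.06. Of the 21 estimates, 19 were positive and 2 negative. With low-dose FGF9 only Cav1 passed, with a fold of 5.27, and the median log2 fold change was 0.58. A change in a bulk sample cannot tell apart a change in the proportion of cells of a type from a change in RNA per cell.

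Translation begins when eIF2 brings the initiator tRNA to the small ribosomal subunit, on which eIF3 forms a scaffold and eIF1, eIF1A and eIF5 govern the choice of start codon. The mRNA is recruited at its cap by eIF4F, which consists of the cap-binding eIF4E, the scaffold eIF4G and the helicase eIF4A, and the 4E-binding proteins block this step until mTOR phosphorylates them. After initiation, eEF1A delivers each aminoacyl-tRNA, the eEF1B subunits recharge it with GTP and eEF2 moves the ribosome along.

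Without FGF, the elongation factors Eef1a1 and Eef2 were the most abundant of the group when levels were set per kilobase of exon. Eef1a1, the main eEF1A isoform, had a derived mean of 62494 normalised counts per kilobase, followed by Eef2 with 20398, Eif4a1 with 12000, Eef1g with 9194 and Eif5a with 6486. Eef1a1 and Eef2 alone held 0.421% and 0.233% of the summed means of all genes, and Eef1a1 made up 22.3% of the summed means of the 69 genes. The value of Eif4a1 is uncertain, since a processed pseudogene named Eif4a-ps4 was listed with a mean of 10812 and reads may be divided between near-identical copies.

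**Figure D1:**
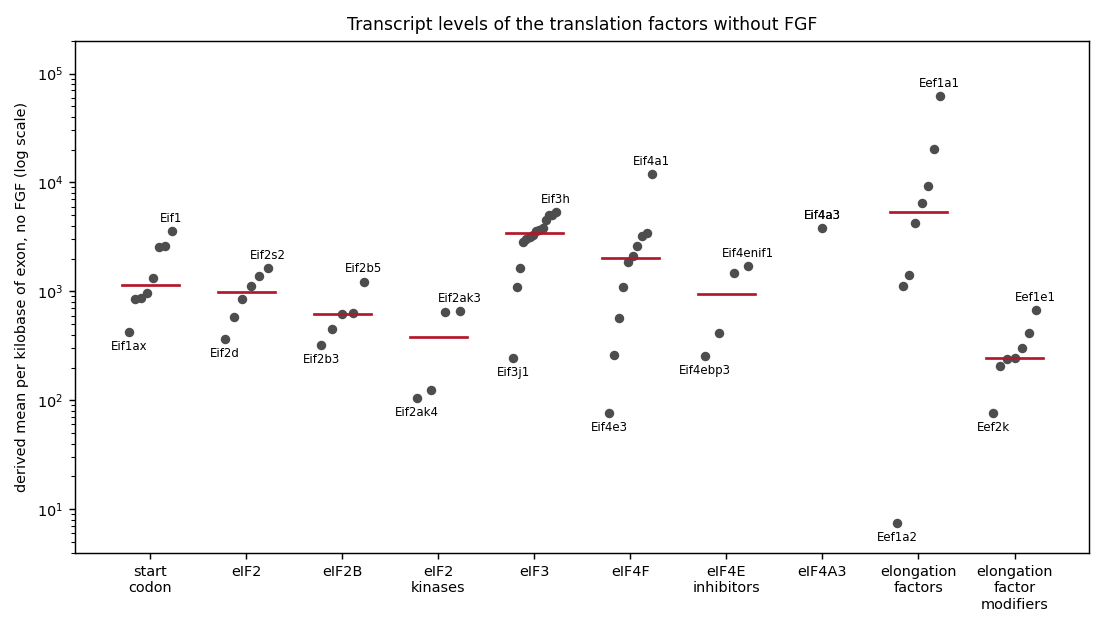
Level of the 67 tested genes in control cells, as the derived mean normalised count per kilobase of exon on a log axis, by role. Each point is 1 gene, the red line is the median of a role and the highest and lowest genes are named. Elongation factors reached from 7.48 for Eef1a2 to 62494 for Eef1a1, and eIF3 subunits had a median of 3422.

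Most subunits of eIF3, the largest initiation factor, had levels of the same order per kilobase. All but 3 of its 14 genes lay between 2818 (Eif3m) and 5361 (Eif3h) normalised counts per kilobase, and the exceptions were Eif3f at 1638, Eif3j2 at 1098 and Eif3j1 at 244. The values of Eif3j1 and Eif3j2 are uncertain, since they are paralogs and reads may be divided between them. Their exon lengths of 5413 and 2379 bases also differ. The guanine nucleotide exchange factor eIF2B stood lower, between 323 for Eif2b3 and 1232 for Eif2b5. The eIF2 kinases ran from 104 for Eif2ak4 (GCN2, which senses uncharged tRNA) to 661 for Eif2ak3 (PERK, the kinase of the endoplasmic reticulum), which overlaps the range of eIF2B. Eef2k, the kinase that inhibits eEF2, was at 77.1.

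Among genes with a close paralog, one copy was usually the more abundant per kilobase. In control, Eef1a1 exceeded Eef1a2, the isoform of muscle and neurons, by 8352-fold, although Eef1a2 had a mean of only 11.4 normalised counts over all libraries. Eif4a1 exceeded Eif4a2 by 5.63-fold, Eif5a exceeded Eif5a2 by 5.73-fold and Eif4g1 exceeded Eif4g3 by 5.61-fold. The cap-binding gene Eif4e was 4.22-fold above Eif4e2, whose product represses translation, and 14.5-fold above Eif4e3. The Y-linked Eif2s3y, which is needed for spermatogonial proliferation, was at 1389 per kilobase and its X-linked homologue Eif2s3x at 586. These ratios carry no replicate error and depend on the annotated exon lengths, taken as unions over the protein-coding transcripts of each gene.

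With high-dose FGF9, 6 of the 67 tested genes changed, 5 up and 1 down, which is 8.96% of them. The authors' Wald p-values, adjusted by the Benjamini-Hochberg method over all 17755 genes tested, called 2.75% of all genes in this comparison, 1.76% up and 0.986% down. Of all genes with a mean of at least 1000, 3.14% were called, against 5 of the 55 translation factors at that level. The median log2 fold change of the 67 genes was 0.02 and that of all genes tested 0.00, and 38 of the 67 estimates were positive. The 5 rises lay between 1.11-fold and 1.43-fold. The fibroblast markers, with a median log2 fold change of 1.36 over the 21 tested, moved in the same comparison, and their part in these changes was not tested. The part of the markers of spermatogonia, of which Id4 and Tex101 were called, was not tested either.

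Eif4ebp1 (GRCm38 chr8:27260329-27276674, plus strand), which encodes the eIF4E inhibitor 4E-BP1, had the largest change of the 6. Its derived mean was 825 normalised counts in control, 776 with low-dose FGF9, 903 with FGF2 and 1180 with high-dose FGF9. The high dose of FGF9 thus stood apart from the other 3 groups, with a fold of 1.43 over control (95% interval 1.25 to 1.64, adjusted p = 3.87e-05). The other 4E-binding proteins did not pass the test: the more abundant Eif4ebp2 had a fold of 1.01 (0.930 to 1.10) and Eif4ebp3 one of 1.03 (0.781 to 1.35). The ratio of Eif4ebp2 to Eif4ebp1 per kilobase was 3.56 in control and 2.52 with high-dose FGF9.

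Eif2s2, the beta subunit of eIF2, had the second largest rise. It was at 4195 normalised counts in control, 4178 with low-dose FGF9, 4289 with FGF2 and 5218 with high-dose FGF9, a fold of 1.24 (1.13 to 1.37, adjusted p = 0.00137). Its partner subunits did not pass the test, with log2 fold changes of 0.01 for Eif2s1 (the alpha subunit that the eIF2 kinases phosphorylate), 0.10 for Eif2s3x and -0.05 for Eif2s3y. No eIF2B or eIF2 kinase gene was called by the Wald test, and none of the 5 and 4 genes reached an unadjusted p under 0.05. The most abundant of each by mean, Eif2b5 and Eif2ak3, had folds of 0.934 (0.846 to 1.03) and 0.923 (0.810 to 1.05).

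Both of the most abundant elongation factors rose. Eef1a1 was at 112114 normalised counts in control, 116887 with low-dose FGF9, 115305 with FGF2 and 130045 with high-dose FGF9, a fold of 1.16 (1.08 to 1.25, adjusted p = 0.00388). Eef2 was at 63010 in control, 61619 with low-dose FGF9, 67419 with FGF2 and 70167 with high-dose FGF9, a fold of 1.11 (1.05 to 1.19, adjusted p = 0.0302). The call of Eef2 was lost when genes with low means were kept in the adjustment (adjusted p = 0.0572) and with a null taken from the data (0.112).

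These transcripts carried most of the gain of the whole group. The summed derived mean of the 69 genes was 522146 in control and 550336 with high-dose FGF9, or 1.86% and 1.95% of all normalised counts. Of this gain of 28190 normalised counts, Eef1a1 gave 17930.4 and Eef2 gave 7157. With low-dose FGF9 and FGF2 the group was at 1.87% and 1.86%.

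The eEF1B subunits, which exchange GDP for GTP on eEF1A, gave unlike values. Eef1b2 had a fold of 1.17 (1.06 to 1.28) and missed the threshold (adjusted p = 0.0575), while Eef1g had a fold of 1.00 (0.954 to 1.05) and Eef1d one of 1.00 (0.929 to 1.08). The eIF5A genes, whose product helps ribosomes past stalling sequences, had folds of 0.940 (Eif5a) and 1.05 (Eif5a2) and did not pass. Eef1a2 had a fold of 0.505, but its interval ran from 0.219 to 1.16.

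The 14 eIF3 genes contained both a rise and the group's only fall. Eif3c, a core subunit, was at 12270 in control, 12827 with low-dose FGF9, 12842 with FGF2 and 13818 with high-dose FGF9, a fold of 1.13 (1.06 to 1.20, adjusted p = 0.00810). Eif3d, the subunit that can bind the cap itself, was at 9606 in control, 9350 with low-dose FGF9, 9328 with FGF2 and 8334 with high-dose FGF9, which is 1.15-fold lower than control (fold 0.868, 0.799 to 0.942, adjusted p = 0.0293). The call of Eif3d was lost in the same way when low genes were kept (adjusted p = 0.0556) and with a null taken from the data (0.113). The other 12 did not pass, among them Eif3a, the most abundant by mean, with a fold of 1.06 (0.948 to 1.18), and 13 of the 14 intervals lay wholly within 1.25-fold of control in either direction.

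**Figure D2:**
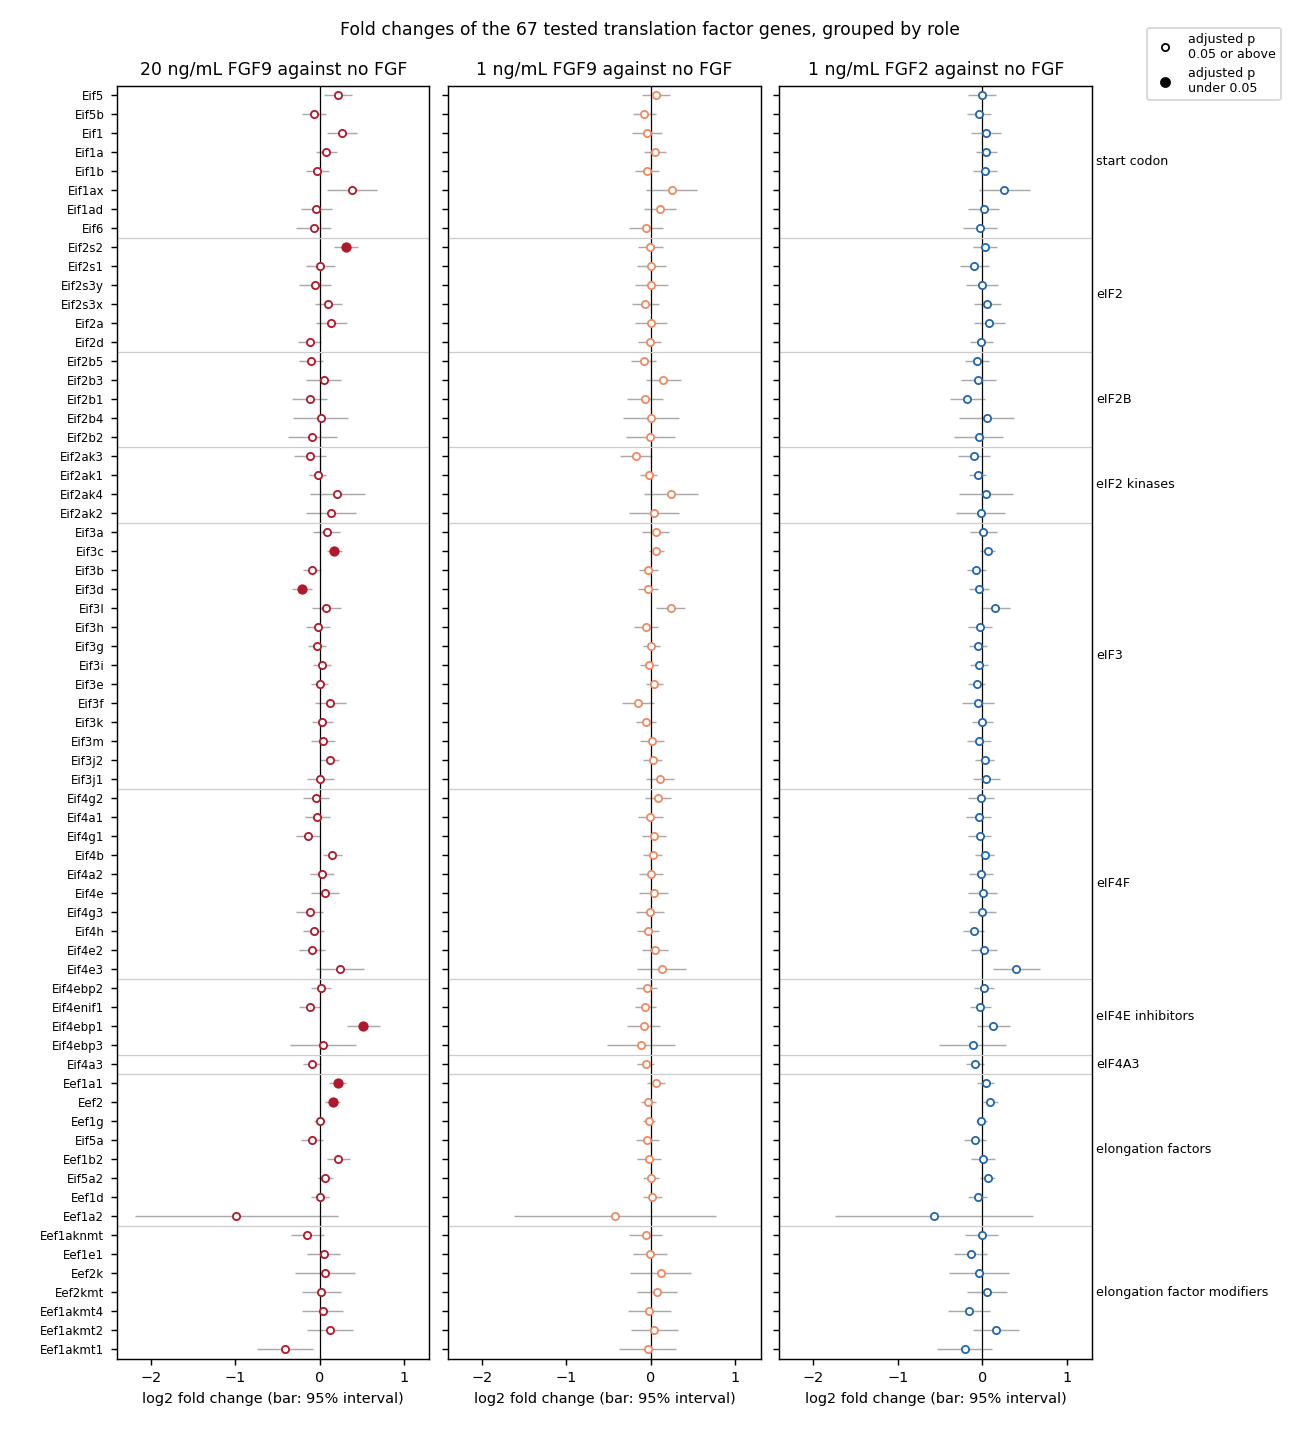
Log2 fold change against control of the 67 tested genes (rows, by role and then by falling mean) with high-dose FGF9, low-dose FGF9 and FGF2. Points are estimates, bars their 95% intervals, and filled points have an adjusted p under 0.05. Filled points occur with high-dose FGF9 only, at Eif2s2, Eif3c, Eif3d, Eif4ebp1, Eef1a1 and Eef2.

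No gene listed with the cap-binding complex eIF4F was called. The list also holds related genes outside the complex itself, such as Eif4b, Eif4e2 and Eif4g2. The estimates of its 10 tested genes ran from -0.14 (Eif4g1, the scaffold) to 0.24 (Eif4e3) on the log2 scale, and 9 of 10 intervals lay within 1.25-fold. Eif4e had a fold of 1.04 (0.928 to 1.17), Eif4a1 one of 0.982 (0.886 to 1.09) and Eif4b, a cofactor of the helicase, one of 1.11 (1.03 to 1.20, adjusted p = 0.154). Eif4g2, an eIF4G homologue that does not bind eIF4E, had the highest mean of the list and a fold of 0.970 (0.873 to 1.08). Eif4a3, the helicase of the exon junction complex, had a fold of 0.937 (0.871 to 1.01).

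None of the genes listed with the start codon factors passed the test either, although 3 of the 8 had an unadjusted p under 0.05, all in the upward direction. The list also holds genes other than those of eIF1, eIF1A and eIF5, such as Eif5b and Eif6. Eif1, which holds the scanning ribosome open, had a fold of 1.20 (1.06 to 1.35, adjusted p = 0.0941). Eif5, which triggers GTP hydrolysis on eIF2 at the start codon, had one of 1.16 (1.04 to 1.30, adjusted p = 0.175). Eif1ax, the X-linked eIF1A gene, had one of 1.30 (1.06 to 1.61, adjusted p = 0.207), whereas its homologue Eif1a had one of 1.06 (0.966 to 1.15).

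In all, 14 of the 67 genes had an unadjusted p under 0.05 with high-dose FGF9, 11 of them higher and 3 lower, while 12% of all genes tested did. Those not yet named were Eif3j2, a loosely bound eIF3 subunit, with a fold of 1.09 (1.01 to 1.17), and Eef1akmt1, a lysine methyltransferase of eEF1A, which was 1.33-fold lower (fold 0.753, 0.600 to 0.944, adjusted p = 0.216). Eef1aknmt, another eEF1A methyltransferase and the most abundant of the modifiers by mean, had a fold of 0.904 (0.791 to 1.03). The intervals of 48 of the 67 genes lay wholly within 1.25-fold of control, and the remaining 19 were too wide or too far out for that statement.

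**Figure D3:**
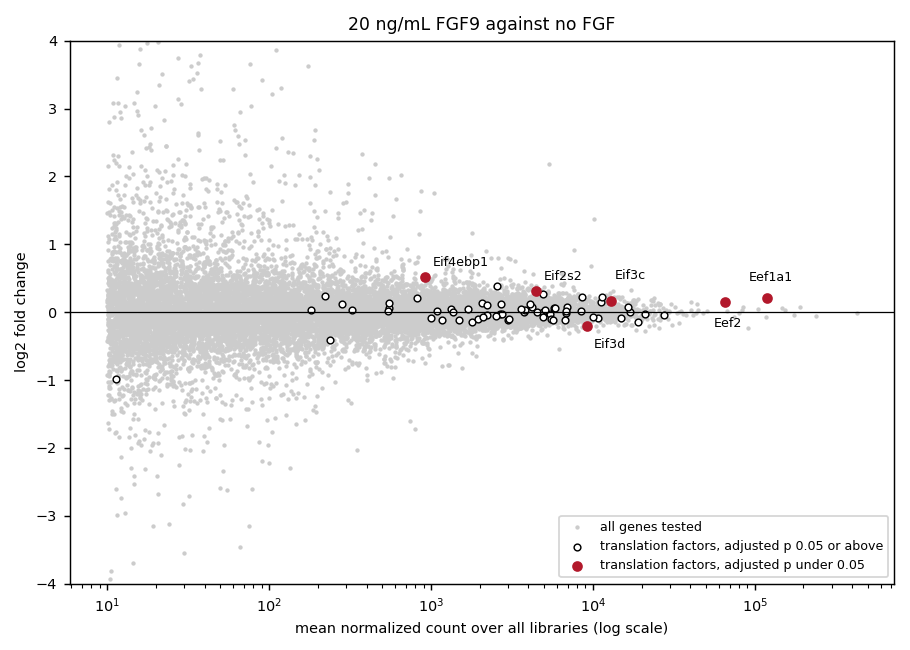
Log2 fold change with high-dose FGF9 against control (vertical axis) by mean normalised count over all libraries (horizontal log axis). Grey points are the 17755 genes tested, of which 29 lie beyond the axis limit of 4, open circles are translation factors that were not called and red points the 6 that were. The red points other than Eif3d lie above 0, and Eef1a1 and Eef2 are among the most abundant genes of the table.

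At 1 ng/mL, neither FGF9 nor FGF2 changed any of the 67 genes past the threshold. With low-dose FGF9, 0.0789% of all genes tested were called, and 1 translation factor had an unadjusted p under 0.05 where 4.31% of all genes did. This was Eif3l, an eIF3 subunit, which was at 6394 in control, 7514 with low-dose FGF9, 7123 with FGF2 and 6755 with high-dose FGF9, a fold of 1.18 with low-dose FGF9 (1.04 to 1.33, adjusted p = 0.720). With FGF2, 0.146% of all genes were called and 5.2% had an unadjusted p under 0.05, among them 2 of the 67. They were Eef2 with a fold of 1.07 (1.01 to 1.14, adjusted p = 0.862) and Eif4e3 with one of 1.32 (1.09 to 1.61, adjusted p = 0.399). The p-values are the authors' Wald values, adjusted over all genes tested.

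Most estimates at 1 ng/mL lay close to control. The intervals of 54 of the 67 genes with low-dose FGF9, and of 52 with FGF2, lay wholly within 1.25-fold of control. The median log2 fold changes of the group were -0.01 in both comparisons. For the 6 genes called at the high dose, the folds with low-dose FGF9 ran from 0.942 (Eif4ebp1) to 1.05 (Eif3c), and those with FGF2 from 0.971 (Eif3d) to 1.10 (Eif4ebp1). All 3 comparisons share the control libraries.

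**Figure D4:**
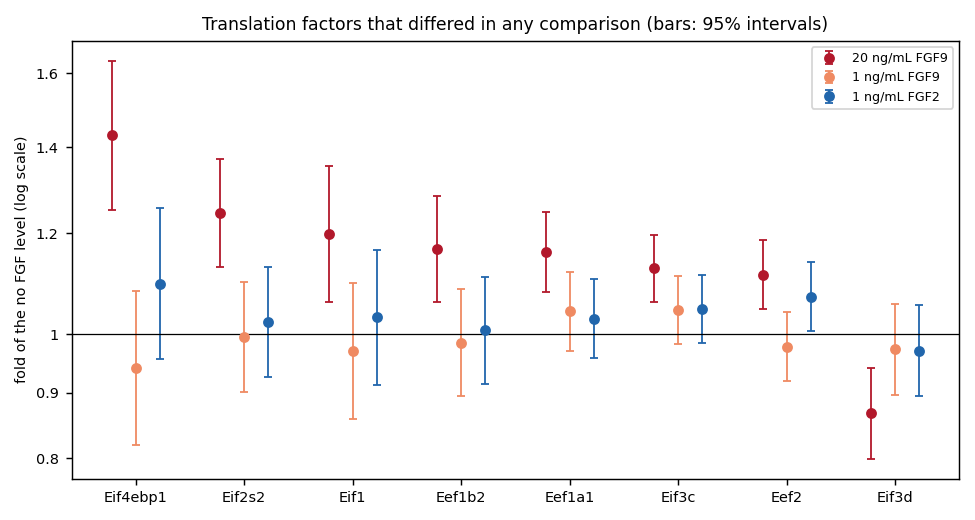
Fold of the control level, on a log axis, for the 8 genes that passed an adjusted p under 0.05 in any comparison, with high-dose FGF9 (red), low-dose FGF9 (orange) and FGF2 (blue). Bars are 95% intervals and the line is the control level. The red intervals of all 8 lie clear of 1. Eif1 and Eef1b2 differed between the doses of FGF9 but missed the adjusted threshold against control.

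Whether the doses of FGF9 differed was asked directly, with a standard error rebuilt from the deposited values for 3 libraries per group. Between the high and the low dose, 2.6% of all genes were called and 5 of the 67 translation factors, all higher at the high dose. Eif4ebp1 was 1.52-fold higher (1.33 to 1.74, adjusted p = 8.41e-07), Eif2s2 1.25-fold (1.13 to 1.38, adjusted p = 0.00119) and Eef2 1.14-fold (1.07 to 1.21, adjusted p = 0.00401). Eif1 was 1.23-fold higher (1.09 to 1.40, adjusted p = 0.0330) and Eef1b2 1.18-fold (1.07 to 1.30, adjusted p = 0.0295). With low genes kept in the adjustment Eif1 and Eef1b2 were no longer called (adjusted p = 0.0678 and 0.0608), nor with a null taken from the data (0.130 and 0.121), which left 3 genes in each case. The fibroblast markers had a median log2 difference of 0.77 in this contrast, with 3 of 21 called, and their part was not tested. Of the 16 markers of spermatogonia 2 were called, Id4 higher and Tex101 lower at the high dose, and their part was not tested.

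For Eef1a1, Eif3c and Eif3d a difference between the doses was not shown. Their folds of high over low dose were 1.11 (1.04 to 1.19, adjusted p = 0.0951), 1.08 (1.01 to 1.14, adjusted p = 0.237) and 0.891 (0.821 to 0.968, adjusted p = 0.135). A change that passed at the high dose and not at the low dose does not show a dose effect in these 3 genes.

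The FGFs were also set against each other. Between high-dose FGF9 and FGF2, which differ in dose as well as in factor, 1.18% of all genes were called and 2 of the 67: Eif2s2 was 1.22-fold higher with FGF9 (1.10 to 1.34, adjusted p = 0.0127) and Eif4ebp1 1.31-fold (1.14 to 1.49, adjusted p = 0.0134). The median log2 difference of the fibroblast markers was 1.26 here, with 7 of 21 called, and 0.38 at the matched dose, with 0 called by the rebuilt test and 3 with an unadjusted p under 0.05, and their part was not tested. Of the 16 markers of spermatogonia, 1 was called between high-dose FGF9 and FGF2, lower with FGF9. At the matched dose 0 of them were called and 6 had an unadjusted p under 0.05, and their part was not tested. At the matched dose of 1 ng/mL, 0.411% of all genes differed between FGF9 and FGF2 and none of the 67 by the rebuilt test. In that contrast 3 of the 67 had an unadjusted p under 0.05, as did 7.11% of all genes. Eef2 was 1.09-fold lower with FGF9 than with FGF2 (fold 0.914, 0.859 to 0.973, adjusted p = 0.279) and Eif4ebp1 1.16-fold lower (fold 0.860, 0.750 to 0.985, adjusted p = 0.585). The third was Eif3e, which had a log2 difference of 0.10. The intervals of 53 of the 67 genes lay wholly within 1.25-fold between the 2 factors at 1 ng/mL.

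The bases just upstream of the start of 5 called genes are shown because these genes changed in the same comparison. For the sixth, Eif4ebp1, no promoter window was matched by symbol, so it was not searched for the sequences below. They are the 100 bases before the annotated start in RefSeq (GRCm38.p6), read on the strand of the gene. Capitals mark CCGGAAG, the core bound by ETS factors, or CACGTG, an E-box bound by factors such as MYC, on either strand.
Eef1a1 (chr9:78481725-78481824, minus strand): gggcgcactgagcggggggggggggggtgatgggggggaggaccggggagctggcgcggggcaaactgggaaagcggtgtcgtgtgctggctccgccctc
Eef2 (chr10:81176531-81176630, plus strand): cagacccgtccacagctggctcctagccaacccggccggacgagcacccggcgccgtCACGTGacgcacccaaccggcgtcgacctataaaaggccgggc
Eif2s2 (chr2:154892907-154893006, minus strand): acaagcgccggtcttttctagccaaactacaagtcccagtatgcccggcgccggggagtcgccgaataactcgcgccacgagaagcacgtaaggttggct
Eif3c (chr7:126566367-126566466, minus strand): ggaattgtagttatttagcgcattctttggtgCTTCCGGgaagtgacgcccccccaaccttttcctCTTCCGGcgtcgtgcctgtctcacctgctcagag
Eif3d (chr15:77970825-77970924, minus strand): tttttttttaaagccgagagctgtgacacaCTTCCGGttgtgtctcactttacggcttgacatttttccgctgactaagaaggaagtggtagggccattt

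Eif3c, which rose, and Eif3d, which fell, both carry CCGGAAG, in reverse orientation as CTTCCGG. In Eif3c the matches begin 68 and 34 bases before the start and in Eif3d 70 bases before it. Eef2 has CACGTG from 43 bases before its start. The windows of Eef1a1 and Eif2s2 hold neither sequence.

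Windows of 300 bases, from 250 before to 50 after the start, were matched by symbol for 53 of the 67 genes. CCGGAAG was in 17 of the 53 (32.1%), compared with 9.93% of all 27025 genes with a window, 18.5% of the 12104 tested ones and 24.7% of the 4890 with a mean of at least 1000. CACGTG was in 14 (26.4%), compared with 8.09%, 11.6% and 13.7%. The cAMP response element TGACGTCA was in 1 of the 53, Eef2, and in 3.38% of tested genes, and TGATGNAAN, the ATF4-type element, was in 2, Eef2k and Eif2s3x, and in 2.65% of tested genes. None of these elements overlapped another in the printed stretches. Many mRNAs of the translation machinery begin with a C followed by pyrimidines, and such a run of 5 pyrimidines, within 2 bases of the annotated start, was found in 10 of the 53 (18.9%) and in 11.8% of tested genes. At the exact annotated start it was found in 2 of the 53 (3.77%) and in 3.07% of tested genes. These are matches of letters and not sites of binding.

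Genes that act on translation beside the named factors, or belong to the eIF2 stress pathway, were examined as a separate list. It was chosen with earlier results of these data known, so its shares of called genes only describe the list. Of 36 tested genes for termination, poly(A) binding, eIF5A hypusination, mTOR and MNK control and the eIF2 stress pathway, 3 rose with high-dose FGF9 (8.33%, against 2.75% of all genes) and none fell, and the median log2 fold change was 0.02. Atf4, whose mRNA is preferentially translated when eIF2 is phosphorylated, was at 2726 in control, 2690 with low-dose FGF9, 3139 with FGF2 and 4619 with high-dose FGF9, a fold of 1.69 (1.56 to 1.84, adjusted p = 3.78e-31). Impact, an inhibitor of GCN2, rose by 1.32-fold (1.14 to 1.53, adjusted p = 0.0113), and Ppp1r15b, a regulatory subunit of the eIF2 phosphatase, by 1.13-fold (1.05 to 1.21, adjusted p = 0.0327). None of the 36 was called by the Wald test with low-dose FGF9 or FGF2, where 4 and 2 had an unadjusted p under 0.05, as did 4.31% and 5.2% of all genes. In the direct contrasts 5 of the 36 were called between the doses of FGF9 (13.9%, against 2.6% of all genes), with Atf4, Impact, Ppp1r15a and Ppp1r15b higher and Dhx29 lower at the high dose. Atf4 was called between high-dose FGF9 and FGF2, and Ppp1r15a, lower with FGF9, at the matched dose.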

How the data were processed

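The authors made stranded mRNA libraries and, per the labels' processing notes, used STAR, Salmon, DESeq2 and the build GRCm38, given as GRCm38.p6 in the study's methods. No source used here states tool versions or the model formula. For 54432 genes the deposited table gives the mean normalised count (a signal) and, for each treatment against control, the log2 fold change with its standard error, the Wald statistic (a score) and the p-value. It also holds the authors' adjusted p-values, which were not used. These columns are the authors' comparisons and were used because the table has no value per library. The number of columns of single samples left unused is 0. The count tests planned could therefore not be refitted.

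The members and lists were chosen with earlier results of these data known. Two-sided p-values of the authors were adjusted (Benjamini-Hochberg) across 17755 genes whose mean was 10 or more, with a threshold of 0.05. Derived group means assume groups of equal size. Intervals are 95% normal intervals from the standard errors. Direct contrasts used the difference of log2 fold changes and a standard error rebuilt from the derived means and the implied dispersion with 3 libraries per group. They were also run on simulated data. The simulated standard errors were made by the same formula, so that run cannot judge the formula. The implied dispersions of the comparisons correlated at 0.9998 or more across 10684 genes whose mean was 200 or more. Lengths are unions of exons of protein-coding transcripts in GENCODE M21, which held all 69 genes with the versions of the table. Depth per library is unknown, and the p-values depend on the authors' own estimate of the spread among libraries. Named were members with an adjusted p under 0.05 in any comparison or an unadjusted p under 0.05 against control, the member with the highest mean in each role, members with paralogs, called genes of the other translation list and up to 3 fibroblast markers. Further members (Eif2s1, Eif2b3, Eif2ak4, Eef2k, Eef1g, Eef1d, Eif3e, Eif3f, Eif3h, Eif3m, Eif5b, Eif6 and those below the filter) were named after their values were seen. The markers Id4, Tex101 and Thy1 were also named after their values were seen. Python 3.11.15 was used with pandas 2.3.3, numpy 2.4.6, scipy 1.17.1 and matplotlib 3.10.9.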

Additional observations from a re-analysis of the deposited data

How the results depend on the processing

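No paired analysis was possible because the table holds no value per library, although the labels share replicate numbers between the treatments, and the leave-one-out fits could not be run for the same reason. The alternatives were no filter on low means, a minimum mean of 50, adjustment over protein-coding genes only, centring on the median gene, a null centred and scaled to the data and, for direct contrasts, 4 libraries per group or the mean of both standard errors. Of the counts of changed translation factors, the 1 for 20 against 1 ng/mL FGF9 moved by over 1.5 times, from 5 to 3 with no filter and to 3 with the null from the data. The cause was not tested. Against control, the count with 20 ng/mL FGF9 was 4 with no filter, 7 with a minimum of 50 (Eef1b2 added), 6 with protein-coding genes or centring and 4 with the null from the data, and the counts of the low doses stayed at 0. Over all genes, the count with 20 ng/mL FGF9 was 488, and 273 with the null from the data, while with that null 76 genes were called with 1 ng/mL FGF9 instead of 14 and 99 with 1 ng/mL FGF2 instead of 26. With no filter, 34 genes were called with 1 ng/mL FGF9. The adjusted p of Eif4ebp1 against control ranged from 3.11e-05 to 0.000789 over the alternatives, that of Eif2s2 from 0.00116 to 0.0114, that of Eef1a1 from 0.00334 to 0.0251, that of Eif3c from 0.00694 to 0.0434, that of Eef2 from 0.0261 to 0.112 and that of Eif3d from 0.0254 to 0.113. Centring turned 1 sign among the named members, that of Eif5a2 with 1 ng/mL FGF9, whose log2 fold change became 0.0022. The number of libraries in the model is not certain and the depth of none is known, so no fold can be checked against single libraries.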

Other observations

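Loci outside the 69 genes also carried translation factor names. The table lists 22 such loci that are not protein-coding, of which 11 had a mean of at least 10 normalised counts and 5 a mean above 100. Eif4a-ps4 was by far the most abundant, with a mean of 10812 and a fold of 0.959 with 20 ng/mL FGF9 (adjusted p = 0.836), beside 20997 and 0.982 for Eif4a1. Next came AC125203.1 with a mean of 418 and a fold of 0.872 (adjusted p = 0.544) and Eif3s6-ps2 with a mean of 159 and a fold of 1.32 (adjusted p = 0.778). None of the 11 was called against control in any comparison, by the authors' Wald p-values adjusted over all genes tested. How reads were divided between these loci and their parent genes is not stated by the sources at hand.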
